A study of Schizosaccharomyces pombe with 72 samples.

Results

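Fission yeast (Schizosaccharomyces pombe) was deprived of nitrogen, and the change of each transcript was compared between 2 pairs of strains, numbers 92 and 93 on one side and 86 and 97 on the other. The comparison used 24 of the 72 libraries of the series, 6 in each of 4 cells formed by strain pair and growth state. The difference in change is the log2 change from cycling to nitrogen-deprived cells in strains 92 and 93 minus the same change in strains 86 and 97. A positive value therefore means a larger rise or a smaller fall in 92 and 93.

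Cycling cells (V25) grew at 25°C in YES, a rich medium. Nitrogen-deprived cells (T0-N) were grown in the synthetic medium EMM2 and then held in EMM2 without nitrogen for 24 hr, so the change spans a change of medium as well as the loss of nitrogen. The study used wild-type cells, a mutant of the cohesin loader gene mis4 (G1487D), a mutant of mip1 (R401G), which encodes the Raptor subunit of the kinase complex TORC1, and the double mutant. The labels of the libraries give a strain number and do not pair it with a genotype, so results are given by strain number and not by mutation. The pairing of 92 with 93 and of 86 with 97 is likewise not in the labels. The study's strain list gives the M mating type for the strains of these genotypes in its expression experiments, and its text states that no mating partner was available. Both alleles change single residues, so the counts on mis4 and mip1 do not by themselves show which strain carries them. Replicates 1 to 3 of each strain and state were biological triplicates that share a batch number across strains.

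When nitrogen runs out, TORC1 is switched off in fission yeast, ribosome production is shut down, and cells recycle protein and RNA. The transcription factor Ste11 then turns on genes for pheromone signalling, mating and the entry into meiosis, and cells without a partner stop in G1 and become quiescent. Cohesin, loaded onto chromosomes by Mis4, holds sister chromatids together and shapes chromosomes.

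The libraries held between 1782730 and 6569486 counts on genes, and the floor of 3 counts corresponded to 0.431 to 1.64 CPM (counts scaled to a common library size). Levels are given below as TMM-scaled CPM, as the lowest, median and highest of the 6 libraries of a cell. Markers of mating type and of starvation were examined first. Transcripts of the M-factor precursor mfm1 stood at 1.03 CPM or below in every V25 library and at 4030 CPM or above in every T0-N library, while those of the P-cell pheromone map2 reached at most 18.6 CPM in any of the 24. The vacuolar protease gene isp6 rose in both pairs, by 4.73 and 4.16 on the log2 scale in 92/93 and 86/97, whereas the values for fnx1, a vacuolar amino acid transporter gene, were -0.28 and 0.03. Spike-in RNA was nearly absent from V25 (21 counts at most) and made up 2.722% to 3.983% of gene counts in T0-N of 86 and 97 against 2.898% to 11.01% in 92 and 93. Values are therefore shares of each library and not amounts per cell, and in these bulk samples fewer cells of a kind and less RNA per cell cannot be told apart.

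Of 5973 genes tested, 1696 (28.4%) changed differently in the strain pairs, 820 (13.7%) with a higher and 876 (14.7%) with a lower change in 92 and 93 (edgeR quasi-likelihood F test, adjusted p below 0.05). The difference was at least 1 on the log2 scale for 433 genes (7.25%), 248 higher (4.15%) and 185 lower (3.1%). Most genes changed between the states in each pair, with a change past the test for 4885 (81.8%) in 92/93 and 4864 (81.4%) in 86/97. The size was mostly moderate, since the median size of the difference among called genes was 0.66 with a median standard error of 0.149. In 1695 of the 1696, both strains of one pair lay on one side of both strains of the other, against 3934 (65.9%) of all genes. The genes were called by the pair difference in these same libraries, so this separation is no separate test. Most called genes moved in the same direction in both pairs and by unequal amounts. There were 327 that fell in both and more in 92 and 93, 297 that rose in both and more in 92 and 93, 242 that rose more in 86 and 97, and 220 that fell more in 86 and 97. Opposite directions, each past the test, were seen for 55 genes that rose in 92/93 and fell in 86/97 and for 48 with the reverse. The calls included 1454 coding genes, 85 antisense RNAs, 64 other non-coding RNAs, 32 tRNAs, 24 snoRNAs or snRNAs and 22 rRNA genes.

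The strain pairs differed far more often in cycling cells in YES (V25) than in nitrogen-deprived cells from EMM2 (T0-N). In V25, 2381 genes (39.9%) differed between the pairs, 19.6% higher and 20.3% lower in 92 and 93, and in T0-N 451 (7.55%), 3.78% higher and 3.77% lower. Among the 1696 called genes, 1322 (77.9%) differed between the pairs in V25 only, 132 (7.78%) in T0-N only, 120 in both states and 122 in neither. The median size of the difference between pairs among called genes was 0.56 on the log2 scale in V25 and 0.141 in T0-N, against 0.251 and 0.119 over all genes. V25 enters the difference in change directly, so these shares describe where it arose and are no separate test. The T0-N count depended on the libraries and the block, from 90 with strain 92 left out to 682 with a separate block for each state. The 1696 became 1011 with strain 92 left out and 1044 without replicate 2. No called gene had the opposite sign there, in fits that reused most of these libraries.

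**Figure D1:**
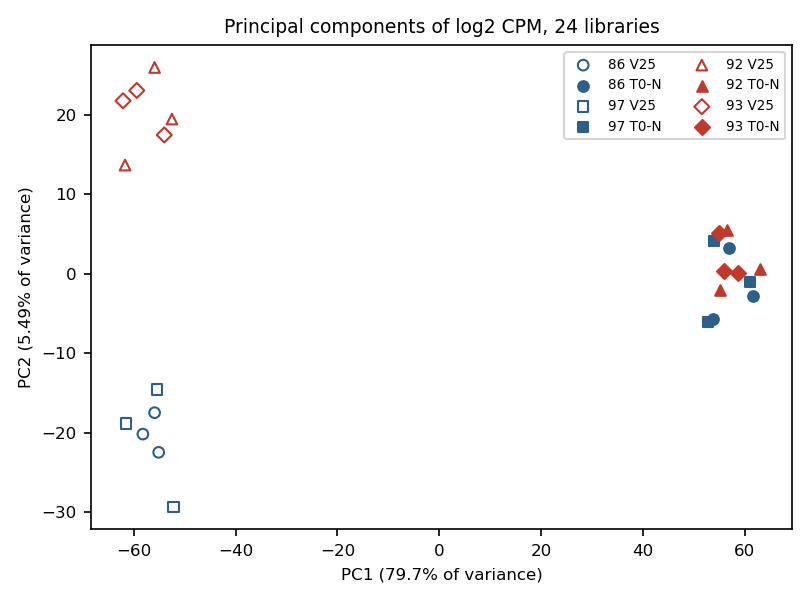
Principal components 1 and 2 of log2 CPM over all genes tested for the 24 libraries, each point 1 library coloured by strain pair and marked by state. Component 1 (79.7% of the variance) separated V25 from T0-N. On component 2 (5.49%) V25 libraries lay at -29.4 to -14.6 for 86 and 97 and at 13.7 to 26 for 92 and 93, while T0-N libraries of both pairs overlapped between -6.1 and 5.5.

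The gene groups with the highest shares of calls in one direction were ribosome biogenesis, the M-cell mating genes, meiotic genes, thiamine genes and phosphate genes on the lower side, and chaperones, snoRNAs, tRNAs and rRNA genes on the higher side. Each is described below by its counts, its median and its members. Over all genes tested the median difference was -0.02.

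**Figure D2:**
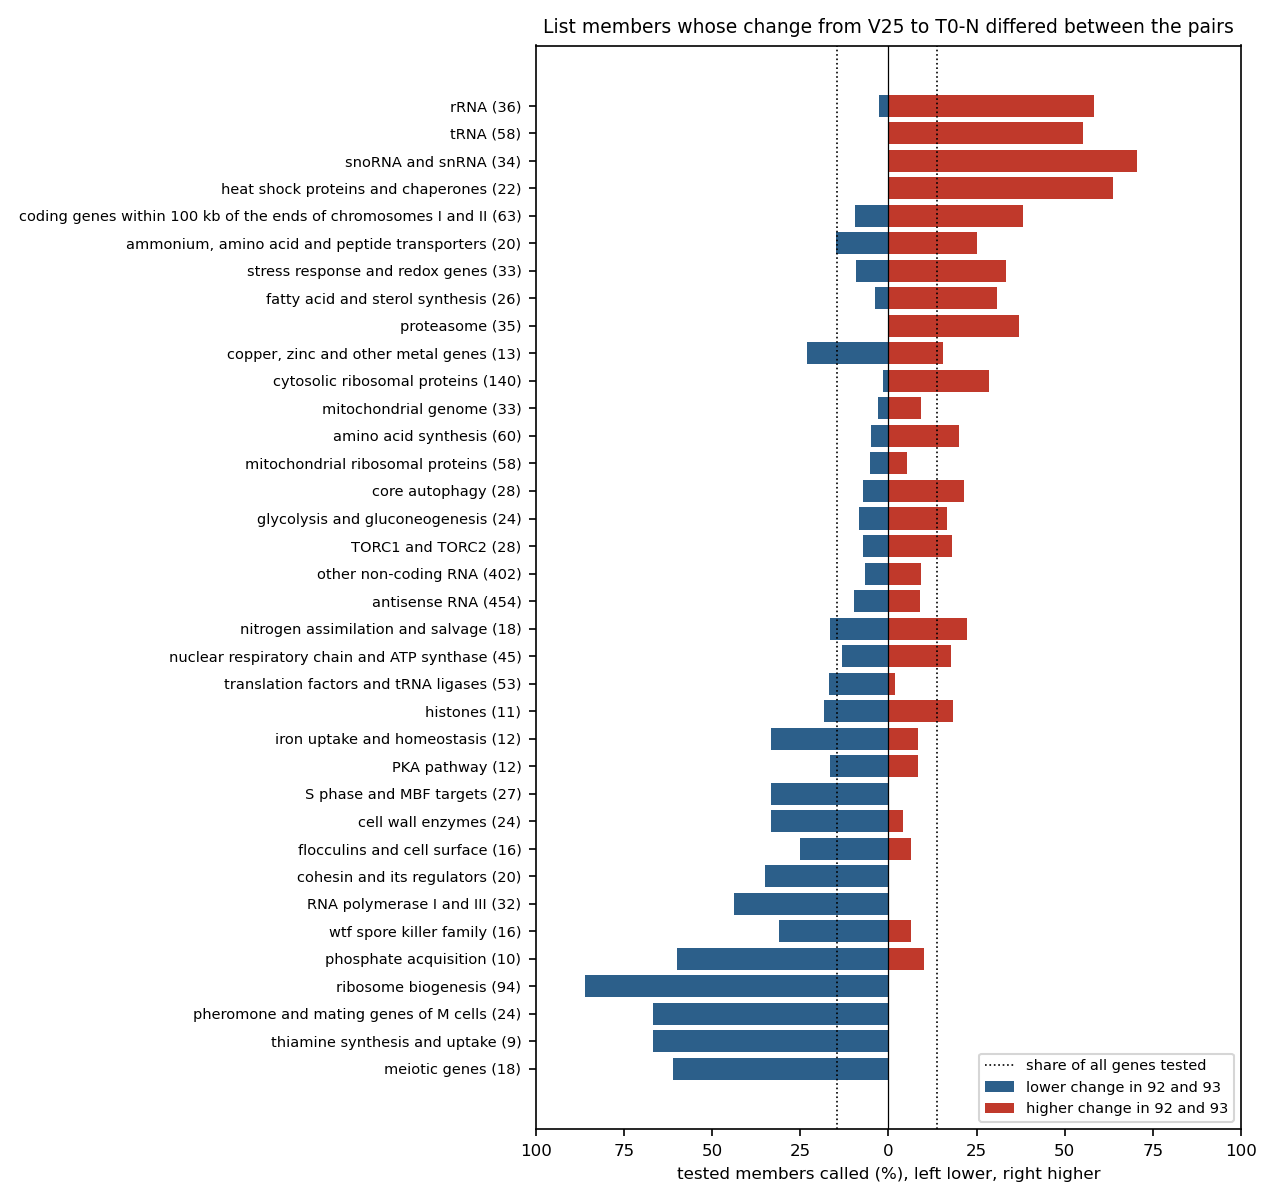
Percent of tested members of each gene list whose starvation change was lower (left) or higher (right) in strains 92 and 93, for lists with at least 9 tested members. Dotted lines mark the background over all 5973 genes (14.7% lower and 13.7% higher), and ribosome biogenesis reached 86.2% lower with no member higher.

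Ribosome biogenesis factors, which process ribosomal RNA and assemble ribosomal subunits in the nucleolus, fell more in 92 and 93. Of 94 tested members 81 (86.2%) had a lower change and none a higher one, against the backgrounds of 14.7% and 13.7%. Their median change was -1.50 on the log2 scale in 92/93 and -0.63 in 86/97. The pairs were apart in V25 and overlapped in T0-N. The mean log2 CPM over the list was 6.49 to 7.16 (median 6.96) in V25 of 86/97 and 7.49 to 7.83 (median 7.74) in V25 of 92/93, with no overlap. In T0-N it was 6.12 to 6.28 in 86/97 and 6.19 to 6.28 in 92/93. Library by library, 62 members had all 6 V25 values of 92/93 above all 6 of 86/97 (66%, against 7.63% of all genes), and in T0-N 1 member did.

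imp4 (SPAC19A8.07c, ASM294v2 chromosome I from 2474620 to 2475765, a coding gene for a protein of the U3 snoRNP that cleaves the rRNA precursor) differed most in this list. Its V25 level was 28.8, 51.7 and 61.5 CPM (lowest, median, highest) in 86/97 and 161, 194 and 217 CPM in 92/93. In T0-N it was 65.9, 77.4 and 107 CPM in 86/97 and 81, 99.1 and 110 CPM in 92/93. The V25 values did not overlap and the T0-N values did. Thus imp4 rose by 0.76 in 86/97 and fell by 0.98 in 92/93, a difference of -1.75 ± 0.15 (SE, adjusted p = 9.1e-09 by edgeR).

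The RNA helicase dbp7 (chromosome II, 2258786 to 2261031), which acts in large-subunit assembly, shared with grx1 below the smallest adjusted p-value of all genes tested. V25 levels were 44.6, 59.2 and 67.2 CPM in 86/97 and 130, 156 and 169 CPM in 92/93, and T0-N levels were 45.5, 50.9 and 56.3 CPM against 42.9, 44.4 and 48 CPM. Again only the V25 groups were separate. The change was -1.78 in 92/93 and -0.19 in 86/97, with a difference of -1.58 ± 0.12 (edgeR, adjusted p = 8.61e-10). A second helicase of the large subunit, dbp9, changed by -1.50 and -0.32, with a difference of -1.18 ± 0.11. Beyond the list, 42 other tested genes had a product name containing ribosome biogenesis, rRNA processing or U3 snoRNP. Of these 36 had a lower and none a higher change (median -0.77), against backgrounds of 14.7% and 13.7%. The words were chosen after the data were seen, so this count is no separate test.

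RNA polymerases I and III, which transcribe the rRNA precursor and the tRNA and 5S genes, moved in the same direction. Among 32 tested genes of these machineries 14 (43.8%) had a lower change and none a higher one, against backgrounds of 14.7% and 13.7%. The median was -0.36. ker1, a subunit of RNA polymerase I, fell from 66.4, 90.8 and 102 CPM in V25 of 86/97 to 11.3, 22.8 and 34.6 CPM in T0-N. In 92/93 it fell from 122, 152 and 178 CPM to 16, 18.7 and 26.6 CPM. The V25 levels were separate and the T0-N ones overlapped, and the difference in change was -0.99 ± 0.16 (edgeR, adjusted p = 4.83e-05). The polymerase I subunit gene rpa49 and the initiation factor gene rrn3 differed by -0.67 and -0.73. Leaving out strain 93 reduced the 14 to 9.

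**Figure D3:**
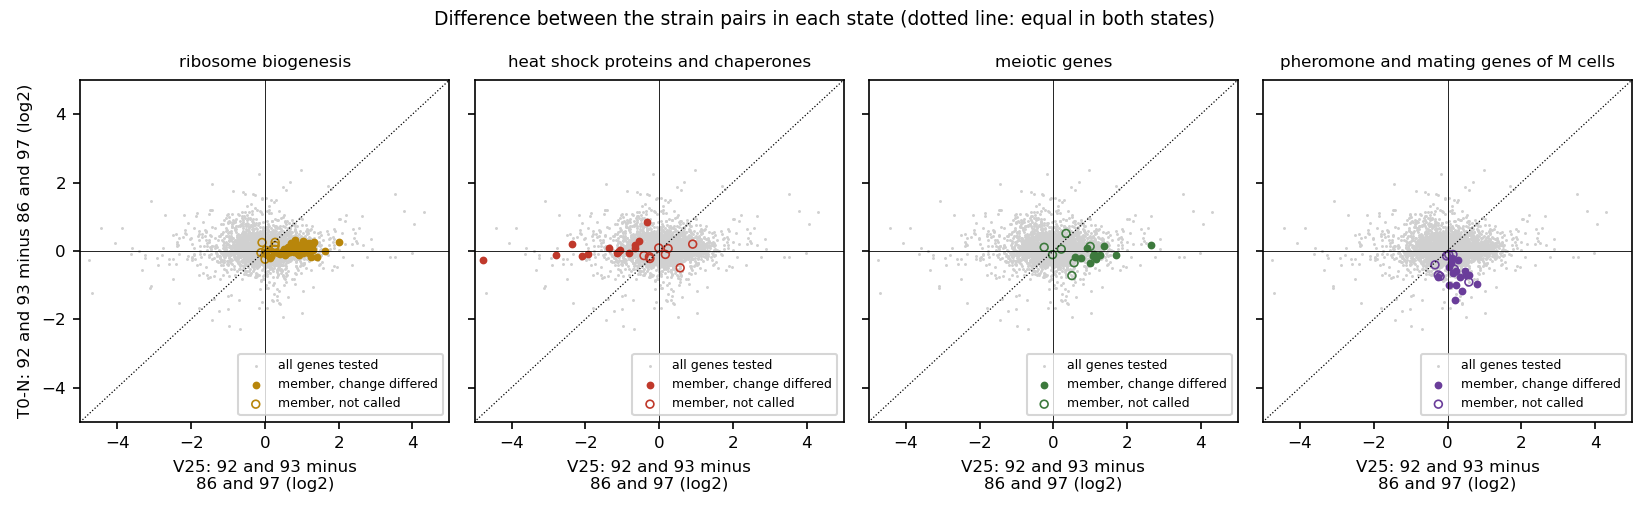
Difference between strain pairs (92 and 93 minus 86 and 97, log2 scale) in V25 on the horizontal axis and in T0-N on the vertical axis, for members of 4 gene lists, each point 1 gene. Genes on the dotted line differ equally in both states and so have no difference in change. Ribosome biogenesis genes spread to the right (median 0.82 in V25, 0.05 in T0-N), chaperones to the left, and M-cell mating genes downwards (median -0.67 in T0-N). 3 genes lie outside the axes.

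Heat shock proteins and other chaperones, which fold or disaggregate protein, showed the opposite pattern. Of 22 tested members 14 (63.6%) had a higher change in 92 and 93 and none a lower one, against backgrounds of 13.7% and 14.7%. The median difference was 0.82. The mean log2 CPM over the list stood at 7.94 to 8.41 in V25 of 86/97 and at 7.08 to 7.28 in V25 of 92/93, and at 7.28 to 7.51 and 7.22 to 7.63 in T0-N. In V25, 16 members were lower in 92/93 (background 20.3%), and 13 of the 22 had all 6 values of 92/93 below all 6 of 86/97 (59.1%, against 8.79% of all genes).

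hsp16 (SPBC3E7.02c, chromosome II from 2660139 to 2660992), a small heat shock protein, had the highest difference of the genes named by rank. Its level in V25 was 120, 204 and 451 CPM in 86/97 and 4.06, 8.3 and 18.9 CPM in 92/93, and in T0-N 69.8, 134 and 204 CPM and 79.3, 105 and 146 CPM. Every V25 library of 92/93 was below every one of 86/97, and the T0-N libraries overlapped. Accordingly hsp16 fell by 0.80 in 86/97 and rose by 3.70 in 92/93, and the difference was 4.50 ± 0.46 (edgeR, adjusted p = 1.36e-07). In strain 92 alone the change was 3.3 and in strain 93 4.33.

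ssa1, a cytosolic Hsp70, stood at 92.2, 204 and 491 CPM in V25 of 86/97 and at 21.6, 30.9 and 41.3 CPM in V25 of 92/93. Its T0-N levels were 197, 236 and 288 CPM and 153, 249 and 261 CPM, which overlapped. The gene rose by 2.87 in 92/93, and its change in 86/97 was 0.20, a difference of 2.68 ± 0.36 (edgeR, adjusted p = 4.67e-06). Some called chaperones fell in both pairs and less in 92 and 93. sti1, which links Hsp70 to Hsp90, went from 705, 796 and 1020 CPM to 79.4, 88.4 and 122 CPM in 86/97 and from 276, 320 and 369 CPM to 79.5, 105 and 110 CPM in 92/93. Its difference was 1.45 ± 0.13 (edgeR, adjusted p = 3.14e-08). The J-domain protein gene psi1, the Hsp90 gene hsp90 and the endoplasmic reticulum Hsp70 gene bip1 also fell in both pairs and differed by 1.84, 0.73 and 0.75. The disaggregase gene hsp104 fell by 1.61 in 86/97 and its change in 92/93 was 0.33, a difference of 1.94, and hsp9 rose in both pairs, with a difference of 2.56.

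Genes of the stress and redox list were mixed, with 11 of 33 higher (33.3%, background 13.7%) and 3 lower (9.09%, background 14.7%). Those that were higher included genes whose products reduce disulfides and peroxides. grx1, a glutaredoxin, was at 279, 339 and 384 CPM in V25 of 86/97 and at 101, 110 and 125 CPM in V25 of 92/93, then at 488, 628 and 793 CPM and at 602, 808 and 950 CPM in T0-N. The V25 groups were separate with 92/93 below, and the T0-N groups overlapped. The difference was 1.90 ± 0.14 (edgeR, adjusted p = 8.61e-10). The thioredoxin gene trx1 and pmp20, a peroxiredoxin-type gene, also differed between the pairs in T0-N. T0-N levels of pmp20 were 399, 500 and 612 CPM in 86/97 and 793, 963 and 1060 CPM in 92/93, a complete separation, and the differences in change were 1.76 ± 0.23 for pmp20 and 1.52 ± 0.15 for trx1 (edgeR, adjusted p = 2.79e-06 and 7.49e-08). The metallothionein gene zym1 rose in both pairs, by 8.54 and 5.97, with a difference of 2.57 ± 0.58 (edgeR, adjusted p = 0.00136). All 4 tested genes with a product named as aldo-keto reductase outside the lists, words chosen after seeing the data, were also higher, by 0.86 to 1.44.

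**Figure D4:**
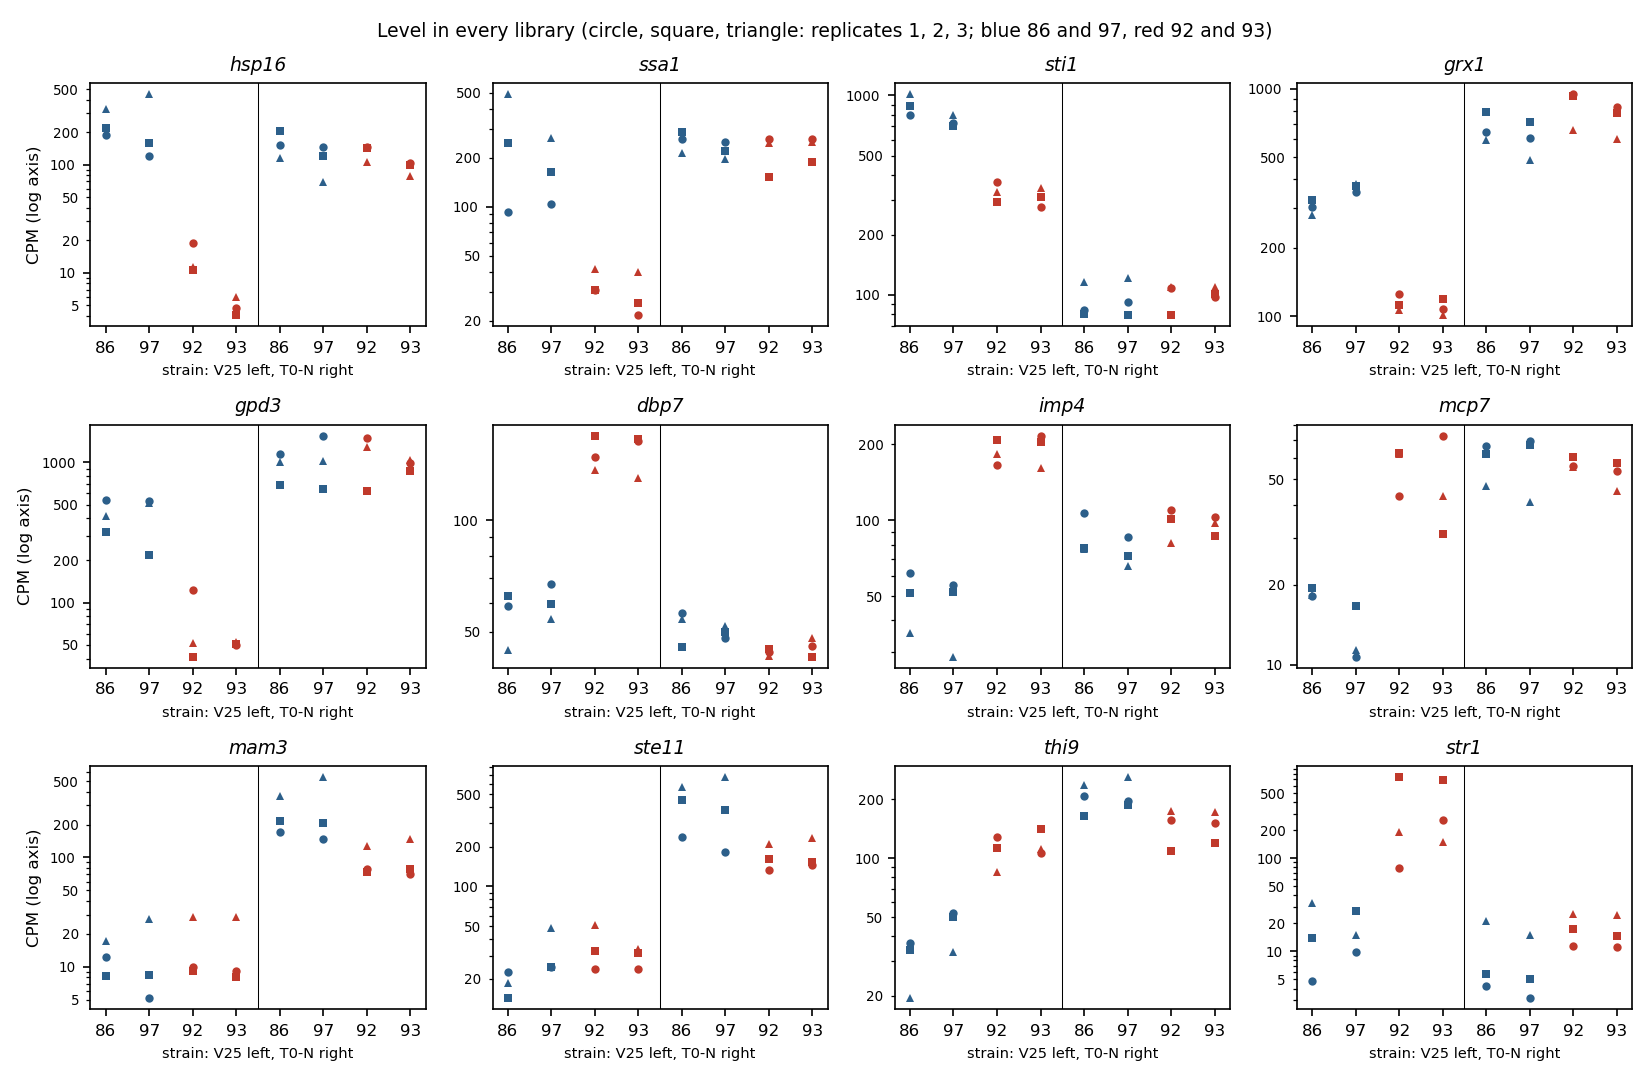
CPM of 12 genes in the 24 libraries on a logarithmic axis, each point 1 library, grouped by strain and state. hsp16, ssa1, sti1, grx1 and gpd3 were lower in V25 of strains 92 and 93, dbp7, imp4, mcp7, thi9 and str1 were higher there, and mam3 and ste11 were lower in T0-N of strains 92 and 93.

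Among the other genes with the largest positive differences, metabolic genes and genes of unknown function had low V25 levels in 92 and 93. gpd3, a glyceraldehyde 3-phosphate dehydrogenase of glycolysis, stood at 219, 464 and 539 CPM in V25 of 86/97 and at 41.3, 51.1 and 123 CPM in V25 of 92/93, and reached 650, 1020 and 1550 CPM and 626, 1020 and 1500 CPM in T0-N. It rose by 1.26 and 4.10 respectively, with a difference of 2.84 ± 0.23 (edgeR, adjusted p = 4.31e-09). Of the windows of 58 bases in gpd3, 10.7% also occurred elsewhere in the genome. A read inside them cannot be assigned to gpd3 by its own sequence, and whether its mate placed it was not examined.

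SPBC19C7.04c, of unknown function, rose to some of the highest levels. It went from 27.4, 33.3 and 75.9 CPM to 1810, 2300 and 3840 CPM in 86/97 and from 1.63, 3.56 and 6.2 CPM to 1830, 2260 and 3250 CPM in 92/93. The pairs were separate in V25 and overlapped in T0-N, and the difference was 3.53 ± 0.36 (edgeR, adjusted p = 1.13e-07). The same shape held for rds1 (3.14 ± 0.25) and for cao2, which encodes a copper amine oxidase-like protein (3.03 ± 0.42). inv1, the secreted invertase that splits sucrose, had a difference of 2.76 ± 0.71 with V25 levels between 8.75 and 118 CPM in 86/97 (edgeR, adjusted p = 0.0046), and with strain 92 left out it was 2.24 (edgeR, adjusted p = 0.13).

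SPAPB24D3.07c went the other way in both pairs. It fell from 92.5, 133 and 241 CPM to 0, 1.54 and 3.83 CPM in 86/97, while in 92/93 it was already at 3.84, 8.64 and 14.4 CPM in V25 and ended at 0.251, 1.73 and 3.02 CPM. The difference of 4.31 ± 0.61 therefore rests on T0-N values near the counting floor in both pairs (edgeR, adjusted p = 7.94e-06). SPBC1105.13c moved in opposite directions, with -2.08 in 86/97 and 1.68 in 92/93 (difference 3.76 ± 0.39). cmt2, a catechol O-methyltransferase gene, was an exception in where it differed. Its V25 levels overlapped, and its T0-N levels were 4.02, 10 and 17 CPM in 86/97 and 16.8, 35.2 and 46.3 CPM in 92/93, which barely overlapped, with a difference of 2.62 ± 0.59 (edgeR, adjusted p = 0.00141).

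Genes of pheromone signalling and mating in M cells rose in both pairs and rose less in 92 and 93. Of 24 tested members 16 (66.7%) had a lower change and none a higher one, against backgrounds of 14.7% and 13.7%. The median rise was 3.42 in 86/97 and 2.58 in 92/93, and the median difference was -0.76. Here the pairs parted in T0-N and not in V25. The mean log2 CPM over the list was 4.17 to 4.55 and 4.32 to 4.64 in V25 of 86/97 and 92/93, and 7.76 to 8.33 and 7.23 to 7.53 in T0-N. In T0-N 19 of the 24 were lower in 92/93, against a background of 3.77%, and for 11 the 6 libraries of 92/93 all lay below those of 86/97 (45.8%, against 1.16% of all genes).

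ste11, the transcription factor that starts the program, went from 14.3, 23.6 and 48.6 CPM in V25 to 181, 417 and 674 CPM in T0-N of 86/97, and from 23.7, 32 and 51.2 CPM to 134, 157 and 231 CPM in 92/93. The T0-N ranges overlapped. The rise was 3.98 and 2.41, with a difference of -1.57 ± 0.26 (edgeR, adjusted p = 6.49e-05), and the pairs differed by -1.19 in T0-N. mei2, an RNA-binding protein needed for meiosis, rose by 7.5 in 86/97 and by 6.21 in 92/93, where all T0-N values were below those of 86/97, a difference of -1.29 ± 0.33 (edgeR, adjusted p = 0.00388), and with strain 92 left out the difference was -1.06 (edgeR, adjusted p = 0.0976).

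Downstream of Ste11, the M-factor precursor genes mfm1 and mfm3, the P-factor receptor gene mam2 and genes of the signalling chain were lower in T0-N of 92 and 93. T0-N values of mfm2, a further M-factor precursor gene, overlapped, at 124 to 983 CPM in 86/97 and 69.9 to 666 CPM in 92/93. In every strain the mfm2 value was lowest in replicate 1. The M-factor precursor gene mfm1 was at 8120, 12500 and 13800 CPM in T0-N of 86/97 and at 4030, 6880 and 7370 CPM in 92/93, with no overlap. With V25 levels close to 0, the difference in change of mfm1 did not pass the test (-1.49 ± 0.75, edgeR adjusted p = 0.145), and the T0-N difference of -0.91 did (edgeR, adjusted p = 5.63e-05). mam2, the receptor for P-factor, was at 1670, 1910 and 2070 CPM in T0-N of 86/97 and at 1050, 1100 and 1370 CPM in 92/93, again with no overlap, and its difference in change was -1.21 ± 0.19 (edgeR, adjusted p = 3.21e-05).

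The MAP kinase gene spk1, the last kinase of the pheromone cascade, rose from 4.69, 6.08 and 9.42 CPM to 237, 273 and 346 CPM in 86/97. In 92/93 it rose from 6.97, 7.43 and 8.15 CPM to 112, 137 and 165 CPM. T0-N values of the pairs did not overlap, and the difference was -1.21 ± 0.19 (edgeR, adjusted p = 2.82e-05). ste6, the Ras exchange factor of the pathway, and rgs1, which damps the G protein signal, differed by -1.08 and -1.04. The smallest p in the list was that of mam3, an adhesin with which M cells agglutinate. Its T0-N level was 147, 210 and 543 CPM in 86/97 and 70.9, 77.8 and 147 CPM in 92/93, and the difference was -1.63 ± 0.23 (edgeR, adjusted p = 8.17e-06). For mam3, 17.1% of 58-base windows recurred elsewhere in the genome, and 12.1% for mfm3 and 7.6% for mfm1.

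Meiotic genes also had lower changes, in a different way. Of 18 tested, 11 were lower (61.1%, background 14.7%) and none higher (background 13.7%), with a median difference of -1.08. In V25, 12 were higher in 92/93, against a background of 19.6%. The mean log2 CPM of the list was 2.06 to 2.26 in V25 of 86/97 and 2.57 to 3.07 in 92/93, without overlap, and 3.82 to 4.24 and 3.73 to 4.18 in T0-N. mcp7, a meiotic coiled-coil protein, was at 10.7, 17.4 and 19.5 CPM in V25 of 86/97 and at 31.1, 52.7 and 73 CPM in 92/93, and at 41, 64.4 and 69.4 CPM and 45, 55.7 and 60.4 CPM in T0-N. The V25 groups were separate and the T0-N groups overlapped. It rose by 1.88 in 86/97 and changed by 0.07 in 92/93, a difference of -1.82 ± 0.24 (edgeR, adjusted p = 3.76e-06).

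Other members had low levels in V25. rec25, a protein of the axial structures of meiotic chromosomes, differed by -1.25 ± 0.21, mei4, a forkhead transcription factor of meiosis, by -1.22 ± 0.30, and rep1, an activator of the MBF transcription factor, by -1.35 ± 0.19 (edgeR, adjusted p = 7.17e-05, 0.0035 and 6.03e-06). The call of mei4 was lost with strain 97 left out (-1.24, edgeR adjusted p = 0.0522). With a minimum of 10 counts in every library 2 meiotic genes were called lower, and 5 without replicate 2, 7 without replicate 3 and 7 with either strain 92 or strain 97 left out.

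Of 20 genes of cohesin and its regulators 7 had a lower change (35%, background 14.7%) and none a higher one (background 13.7%). The 7 included the meiotic subunits rec8 (-1.38) and rec11 (-0.81). The call of rec8 was lost without any 1 replicate (-1.63 to -1.08) and that of rec11 without replicate 1 or 3 (-0.79 and -0.82) and with strain 92 or 97 left out (-0.46 and -0.56). The loader gene mis4 was at 67.8, 72.4 and 79.9 CPM in V25 of 86/97 and at 71.9, 93.4 and 99.2 CPM in 92/93, and at 101, 128 and 154 CPM and 82.3, 108 and 114 CPM in T0-N. The ranges overlapped in both states. mis4 rose by 0.83 in 86/97 and by 0.21 in 92/93, a difference of -0.62 ± 0.12 (edgeR, adjusted p = 0.000468). The count of 7 fell to 1 without replicate 3, 2 without replicate 2, 3 without replicate 1, and 2 to 4 with 1 strain left out, and to 3 without the replicate block.

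Lower changes were found for 9 of 27 S-phase genes and targets of MBF, the factor for the start of the cell cycle (33.3%, background 14.7%). None had a higher change (background 13.7%). cig2, the G1/S cyclin, ended at 79.6, 107 and 129 CPM in 86/97 and at 47, 55.9 and 71.4 CPM in 92/93, which did not overlap, from V25 levels of 116, 134 and 174 CPM and 107, 134 and 138 CPM. Its difference was -0.78 ± 0.10 (edgeR, adjusted p = 3.9e-06). rum1, the inhibitor of the cyclin-dependent kinase in G1, rose by 2.11 in 86/97 and by 1.30 in 92/93 (difference -0.80 ± 0.13), and the licensing factor gene cdc18 differed by -0.70.

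**Figure D5:**
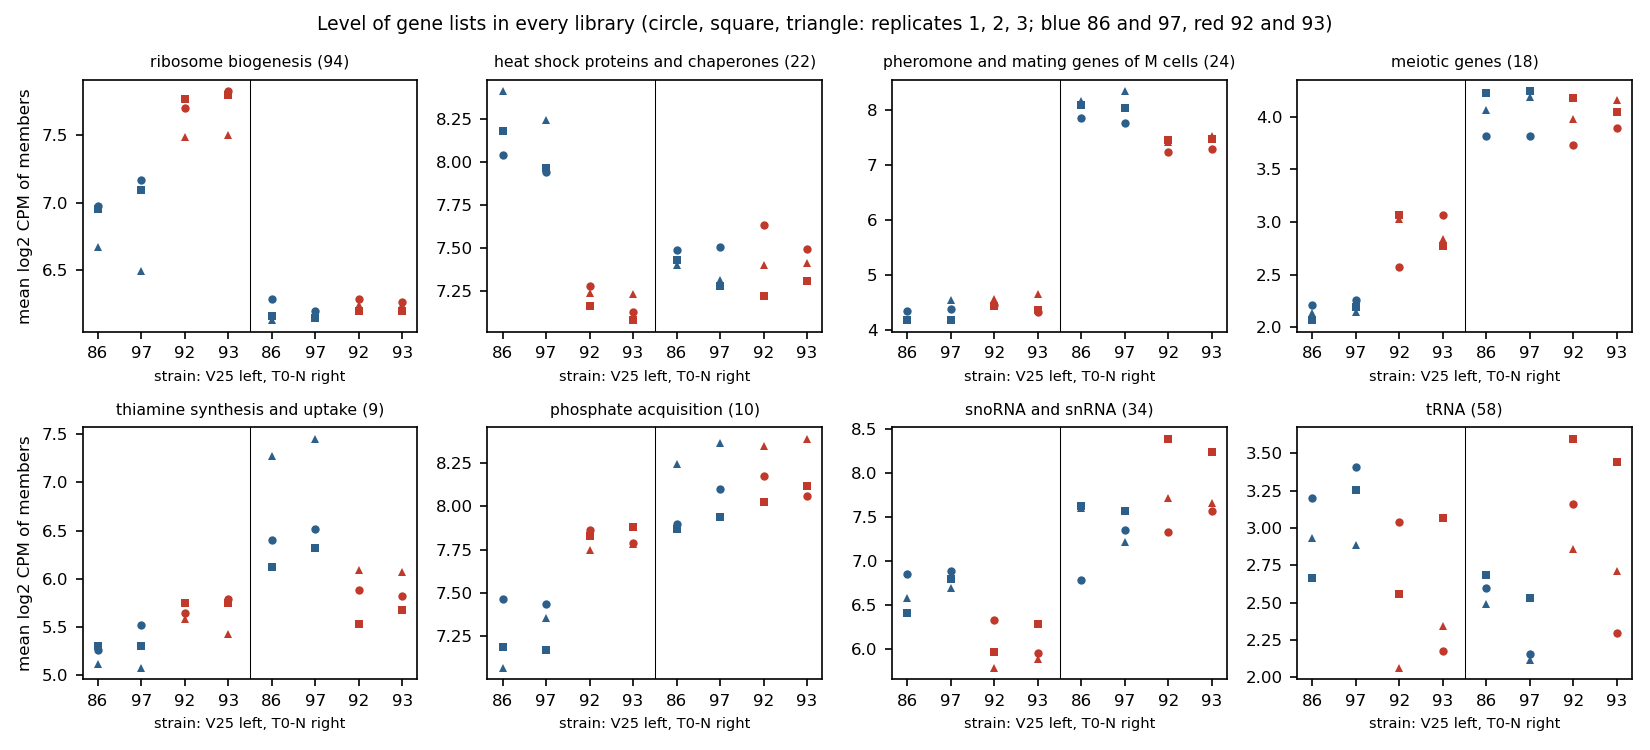
Mean log2 CPM over the tested members of 8 gene lists in each of the 24 libraries, by strain and state, each point 1 library. For ribosome biogenesis the medians in V25 were 6.96 in strains 86 and 97 and 7.74 in strains 92 and 93, for chaperones 8.11 and 7.2, and for M-cell mating genes in T0-N 8.06 and 7.43.

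Thiamine genes, which make and import vitamin B1, were lower in 6 of 9 cases (66.7%, background 14.7%) and higher in none (background 13.7%). Their median was -1.003. The thiamine transporter gene thi9 was at 19.5, 35.5 and 52.9 CPM in V25 of 86/97 and at 85.3, 112 and 140 CPM in V25 of 92/93, and at 164, 201 and 259 CPM and 108, 154 and 173 CPM in T0-N. The order of the pairs reversed between the states, with separate values in V25 and overlapping ones in T0-N. thi9 rose by 2.42 in 86/97 and its change in 92/93 was 0.33, with a difference of -2.09 ± 0.23 (edgeR, adjusted p = 3.3e-07). bsu1, which imports vitamin B6, and the thiamine-repressible phosphatase gene pho4 differed by -1.63 and -1.29. SPBP8B7.18c, annotated as the pyrimidine kinase Thi201, was not on the list. It fell by 1.90 in 92/93 and changed by -0.14 in 86/97, a difference of -1.76 ± 0.32 (edgeR, adjusted p = 0.00017). nmt1, the most thiamine-sensitive gene of the pathway, reached no more than 4 counts in a V25 library. In T0-N it stood at 5.52, 14.5 and 377 CPM in 86/97 and at 1.29, 2.39 and 4.48 CPM in 92/93, without overlap, and the highest values, 340 and 377 CPM, were those of replicate 3 in strains 86 and 97. The difference in change of nmt1 did not pass the test (edgeR, adjusted p = 0.139), and its T0-N difference of -3.87 did (edgeR, adjusted p = 7.35e-05).

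Phosphate acquisition genes were lower in 6 of 10 cases (60%, background 14.7%) and higher in 1 (10%, background 13.7%), with a median of -0.62. tgp1, which takes up glycerophosphodiesters, went from 14.7, 16.4 and 21.1 CPM to 165, 186 and 263 CPM in 86/97 and from 43.7, 48.1 and 59.1 CPM to 209, 269 and 352 CPM in 92/93. It was separate in V25 and overlapping in T0-N, and its difference was -1.07 ± 0.13 (edgeR, adjusted p = 8.53e-07). vtc4 and vtc2, subunits of the polyphosphate polymerase, rose in 86/97 by 0.46 and 0.43 and fell by 0.31 and 0.40 in 92/93, so their directions were opposite.

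Among the genes named by rank the largest negative differences belonged to iron uptake. The list as a whole had 4 of 12 members lower (33.3%, background 14.7%) and 1 higher (8.33%, background 13.7%). fip1, the plasma membrane iron permease, was at 2.22, 3.08 and 4.46 CPM in V25 of 86/97 and at 9.26, 27.4 and 107 CPM in 92/93, and at 20.2, 34.6 and 74.7 CPM and 46.4, 56.7 and 104 CPM in T0-N. Its partner fio1, a multicopper oxidase, and the siderophore transporter gene str1 were also higher in V25 of 92/93. Their V25 levels there were 58.6 to 475 CPM for fio1 and 79.3 to 743 CPM for str1. All lay above the 8.89 to 23.3 CPM and 4.81 to 33.2 CPM of 86/97. The spread inside V25 of 92/93 followed the batch. Replicate 2 of both strains was the highest for each of the 3 genes (str1 at 743 and 685 CPM against 79.3 to 260 CPM in replicates 1 and 3). T0-N levels of fio1 were 9.87 to 39.5 CPM in 86/97 and 34.9 to 73.4 CPM in 92/93. Those of str1 were 3.16 to 21.15 CPM and 11.3 to 25.1 CPM. The direction of the change in 92/93 was not shared. The median rose to T0-N for fip1 and fell for fio1, from 133 to 47.6 CPM, and every str1 value in T0-N was below those in V25. Differences were -3.25 ± 0.73 for fip1, -3.17 ± 0.68 for str1 and -2.61 ± 0.65 for fio1 (edgeR, adjusted p = 0.00129, 0.00081 and 0.00339). With strain 97 left out, the difference of fio1 was -2.42 (edgeR, adjusted p = 0.0691). Without replicate 2 the differences were -2.07 for fip1, -2.69 for str1 and -1.9 for fio1, and each still passed the test.

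Further large negative differences were those of atd1, an aldehyde dehydrogenase gene, and of 4 genes for predicted transporters or proteins of unknown function. atd1 was at 96.9, 149 and 360 CPM in V25 of 86/97 and at 781, 1140 and 1660 CPM in 92/93, and converged on 541, 703 and 926 CPM and 486, 817 and 888 CPM in T0-N. It rose by 2.10 in 86/97 and fell by 0.73 in 92/93, with a difference of -2.83 ± 0.34 (edgeR, adjusted p = 1.04e-06). The transporter gene SPAC1399.01c differed in T0-N. Its V25 levels overlapped, and in T0-N it stood at 270, 440 and 499 CPM in 86/97 and at 147, 162 and 191 CPM in 92/93, a difference of -1.99 ± 0.26 (edgeR, adjusted p = 3.57e-06). SPAPB15E9.02c had the same form (-1.92 ± 0.27), and SPCC1529.01 and SPBC887.17 differed by -2.38 and -1.88.

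Transporters of ammonium, amino acids and peptides were divided, with 5 of 20 higher (25%, background 13.7%) and 3 lower (15%, background 14.7%). fnx2, a vacuolar amino acid transporter, was at 67.7, 71.6 and 98.7 CPM in V25 of 86/97 and at 31, 36 and 38.5 CPM in 92/93, and at 75, 98.9 and 140 CPM and 99.5, 108 and 121 CPM in T0-N. It rose by 1.66 in 92/93 and 0.43 in 86/97, a difference of 1.23 ± 0.14 (edgeR, adjusted p = 8.53e-07). The arginine and lysine transporter gene cat1 fell less in 92/93 (0.93 ± 0.16). ptr2, which imports peptides, overlapped in V25 and was separate in T0-N, at 278, 459 and 582 CPM in 86/97 and 181, 205 and 238 CPM in 92/93, a difference of -1.16 ± 0.20 (edgeR, adjusted p = 0.000102).

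Nitrogen assimilation genes were higher in 4 of 18 cases (22.2%, background 13.7%) and lower in 3 (16.7%, background 14.7%), with a median of 0.01. gdh1, the enzyme that fixes ammonium into glutamate, stood at 316, 397 and 620 CPM in V25 of 86/97 and at 107, 168 and 223 CPM in 92/93, and at 133, 171 and 213 CPM and 114, 152 and 183 CPM in T0-N. It fell by 1.30 in 86/97 and changed by -0.13 in 92/93, a difference of 1.17 ± 0.21 (edgeR, adjusted p = 0.000118). The aspartate aminotransferase gene caa1 differed by 0.59 and the glutamate synthase gene glt1 by -0.51. Amino acid synthesis genes were higher in 12 of 60 cases and lower in 3, a share of 25% called that is under the background of 28.4%. Those that were higher included ser3 of serine synthesis (0.96), arg12 of arginine synthesis (0.80) and his2 of histidine synthesis (0.72).

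Genes of the signalling complexes themselves were called at about the background rate of 28.4%. Of 28 TORC1 and TORC2 genes 5 were higher and 2 lower, of 12 genes of the PKA pathway 1 was higher and 2 lower, and of 28 core autophagy genes 6 were higher and 2 lower. mip1 was at 178, 192 and 199 CPM in V25 of 86/97 and at 215, 231 and 283 CPM in 92/93, separate in V25, and at 133, 162 and 192 CPM and 140, 170 and 182 CPM in T0-N. Its difference of -0.29 ± 0.09 (edgeR, adjusted p = 0.0222) was lost under 6 of 19 alternatives, among them every strain left out in turn (-0.33 to -0.27) and replicate 3 left out (-0.11). The protein kinase genes sck1 and sck2 differed by 0.35 and -0.36, in opposite directions, and both calls were lost with strain 86 left out (edgeR, adjusted p = 0.0716 and 0.0613).

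Proteasome genes were higher in 13 of 35 cases (37.1%, background 13.7%) and lower in none (background 14.7%), with a median of 0.21. The core subunit genes pre1 and pre5 each differed by 0.61, and the receptor subunit gene rpn10 by 0.45. The count fell to between 4 and 7 without any 1 replicate, without the replicate block, and with strain 86, 92 or 97 left out. Cytosolic ribosomal protein genes fell in both pairs. They fell less in 92 and 93 in 40 of 140 cases (28.6%, background 13.7%) and more in 2 (1.43%, background 14.7%), with a median of 0.15. The share called in either direction, 30%, was near the background of 28.4%. Mean log2 CPM over the list in V25 was 9.28 to 9.81 in 86/97 and 8.97 to 9.8 in 92/93. In T0-N it was 6.93 to 7.47 and 7 to 7.53, so the pairs overlapped in both states. Most called members, and not the list as a whole, thus went opposite to the ribosome biogenesis factors. rps2801, for a small-subunit protein, went from 1310, 1350 and 1630 CPM to 216, 292 and 327 CPM in 86/97 and from 657, 775 and 995 CPM to 273, 323 and 364 CPM in 92/93 (difference 1.00 ± 0.12, edgeR adjusted p = 1e-06). Separate in V25, rps2801 overlapped in T0-N. The 40 calls became 16 with strain 92 left out, 20 with strain 97 left out, 21 without replicate 3 and 24 without the replicate block.

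Small and structural RNAs had large positive median differences. Changes were higher for 32 of 58 tRNAs (55.2%, median 1.32), 24 of 34 snoRNAs and snRNAs (70.6%, 1.17) and 21 of 36 rRNA genes (58.3%, 1.70). The background was 13.7%. A lower change was found for 1 rRNA gene (2.78%, background 14.7%). The mean log2 CPM over rRNA genes was 5.48 to 6.16 in V25 of 86/97 and 4.47 to 4.98 in V25 of 92/93, against 4.07 to 5.03 and 4.33 to 4.8 in T0-N. These libraries were depleted of rRNA, and the share of counts on these classes moved with the groups. In V25 snoRNAs and snRNAs took a median of 3.78% of counts in 86/97 and 2.43% in 92/93. In T0-N they took 6.5% and 10.2%. For rRNA the medians were 8.48% and 9.26% in V25 and 16.6% and 12.8% in T0-N. The total rRNA share thus rose more in 86/97, the reverse of the direction of most called rRNA genes. The part of depletion and of RNA recovery in these values was not tested. With all of these classes left out of the table, 1592 genes were still called, 1508 of them among the 1696. The 32 tRNA calls became 9 with strain 97 left out and 12 with strain 92 left out, 18 with a minimum of 10 counts in every library and 19 without replicate 2. The 21 rRNA calls became 7 with that minimum. The 5S rRNA genes SPRRNA.40 and SPRRNA.38 differed by 2.73 ± 0.30 and 2.77 ± 0.46. Since 66.7% and 84.5% of their 58-base windows recur elsewhere, the values may not belong to 1 gene alone.

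Coding genes within 100 kb of the ends of chromosomes I and II were higher in 24 of 63 cases (38.1%, background 13.7%). They were lower in 6 (9.52%, background 14.7%), with a median of 0.51. SPAPJ695.02, of unknown function on chromosome I from 74452 to 76721, was at 16.6, 34.5 and 95.2 CPM in V25 of 86/97 and at 0.61, 1.82 and 2.96 CPM in 92/93, and at 25.7, 46.8 and 122 CPM and 19.1, 27.5 and 34.3 CPM in T0-N. It was separate in V25 and overlapped in T0-N (difference 3.45 ± 0.65, edgeR adjusted p = 0.000232). SPAC977.18 differed by 4.53 ± 0.54, but 82.4% of its 58-base windows occur elsewhere in the genome.

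Cell wall enzymes were lower in 8 of 24 cases (33.3%, background 14.7%) and higher in 1 (4.17%, background 13.7%). The septum glucanase gene agn1 (-1.04) and the chitin synthase gene chs1 (-0.86) were lower and the glucosidase gene exg3 (0.81) was higher. The 8 became 2 without replicate 2, 4 without replicate 3 and 3 without the replicate block. Lists at or under the background of 28.4% called included mitochondrial ribosomal proteins (3 of 58 higher and 3 lower), translation factors and tRNA ligases (1 and 9 of 53) and genes of glycolysis and gluconeogenesis (4 and 2 of 24).

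Of 454 antisense RNAs 41 had a higher and 44 a lower change, and of 402 other non-coding RNAs 37 a higher and 27 a lower one, both shares under the background of 28.4%. SPAC1F8.04c-antisense-1, at one end of chromosome I, was at 1.48, 3.02 and 5.28 CPM in V25 of 86/97 and at 16.3, 27.2 and 64.6 CPM in 92/93, and at 2.57, 3.8 and 7.67 CPM and 10.5, 12.8 and 23.9 CPM in T0-N. It was higher in 92/93 in both states without overlap, and the difference was -1.84 ± 0.50 (edgeR, adjusted p = 0.00694). With strain 86 or 93 left out it was -1.68 and -1.57 (edgeR, adjusted p = 0.0796 and 0.0521). It overlaps the hydrolase gene SPAC1F8.04c and 2 other non-coding RNAs. The libraries were stranded, but the strand setting of the counting is not given in the sources used here, so its reads cannot be told apart from those of the genes it overlaps. The same holds for 67 of 115 genes named by rank or from the lists, which overlap another annotated gene, 62 of them on the opposite strand (among them ssa1, gpd3, cao2, mcp7, mam2, mam3, spk1, cig2 and ptr2). SPBC428.15-antisense-1 differed by -1.80 ± 0.28 with 0.496 to 3.58 CPM in V25 of 86/97 and 6.3 to 9.96 CPM in V25 of 92/93.

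Within the pairs few differences in change passed the test. These contrasts used fewer libraries than those between the pairs, and the pairs were set with earlier results of these data known. The counts are therefore no test of likeness within pairs. Between strains 93 and 92 no gene passed the test (edgeR, adjusted p), 174 (2.91%) had an unadjusted p below 0.05, and between 97 and 86 2 genes passed (0.0335%) and 248 (4.15%) had an unadjusted p below 0.05. The alcohol dehydrogenase gene adh4 fell by 4.3 in strain 86 and changed by -0.6 in strain 97, a difference of 3.63 (edgeR, adjusted p = 2.9e-08). The zinc transporter gene zrt1 differed by -1.72 (edgeR, adjusted p = 0.000352). adh4 was also called between the pairs (2.53 ± 0.62), and this call was lost in 2 of 19 alternatives, where the difference went down to 0.03.

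The cultures were also followed for 4 more days at 25°C (T4D25) or 36.5°C (T4D36.5), in 24 further libraries of the same strains. These came from the T0-N cultures and share their strains and batches, so they are given side by side. In a fit of these libraries the pairs differed for 412 of 6136 genes (6.71%) in T4D25 and 3499 (57%) in T4D36.5. Of 251 called genes that differed in T0-N and were tested there, 90 also differed in T4D25, 88 of them in the same direction. In T4D36.5, 167 of the 251 differed, and 128 of the 167 had the same direction as in T0-N. The shares over all genes in these states were the 6.71% and 57% given above. The M-cell mating genes stayed apart, with 19 of 24 lower in 92/93 in T4D25 (background 3.88%) and a median of -1.30, against -0.67 in T0-N. Pair differences in T4D25 were -4.07 for mfm3, -3.63 for mfm1, -3.41 for mam2, -2.32 for mei2, -2.14 for rgs1 and -2.09 for ste11. Thiamine genes were lower in 5 of 9 cases there. In ribosome biogenesis 1 of 94 genes differed in T4D25 and in the chaperones 2 of 22. At 36.5°C, where 27.3% of genes were higher and 29.8% lower, 21 of 24 mating genes were lower in 92/93 and 1 higher, 11 of 22 chaperones lower and 5 higher, and 41 of 94 ribosome biogenesis genes higher and 11 lower.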

How the data were processed

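The authors deposited counts per gene, whole numbers that had not been normalized, for 7014 genes and 92 ERCC spike-in RNAs. Total RNA was depleted of rRNA with the Ribominus kit and prepared with the Illumina stranded ligation protocol. The submitters' processing notes name bcl2fastq, STAR 2.7.10a, featureCounts 1.5.1 and ASM294v2. Reads were 58 bases long and paired end. A read inside repeated sequence cannot be placed by its own sequence, which affects multicopy genes.

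From these counts, 24 libraries (V25 and T0-N of strains 86, 92, 93 and 97) were analysed in edgeR 4.0.16 (R 4.3.3), with spike-in rows dropped, filterByExpr, TMM normalization, a term for each of the 4 cells, the replicate number as block, quasi-likelihood F tests at 0.05 and adjustment over 5973 genes by Benjamini-Hochberg. Standard errors were computed as the size of the log2 change over the square root of F. Errors written with ± are these. List levels are means of log2 CPM with a prior count of 2. T4D25 and T4D36.5 libraries were fitted separately. A fit with 8 cells of strain and state gave changes per strain. The floor of 3 counts covers counting error only, since PCR copies are not independent molecules. The pairing by replicate number comes from the batch label: deviations of libraries with the same number correlated at 0.253 in V25, 0.55 in T0-N and 0.178 across states, and those with different numbers at -0.123, -0.272 and -0.0887. The script was tested on simulated data.

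The comparison, the gene lists and the tests were chosen with earlier results of these data known, including the split of the strains. Genes were named by rank (the 12 coding genes with the largest positive and negative differences and 2 non-coding genes each way, with more than 3 counts in 5 of 6 libraries of every cell and a mean log2 CPM no lower than 1) and up to 3 called genes per list with the smallest p. ste11, mei2, mfm1, mfm2, mfm3, mam2, rgs1, hsp104, hsp9, hsp90, bip1, nmt1, rec8, mei4, SPAC977.18, isp6, fnx1, mip1, zrt1 were added after their values were seen. Product names came from RefSeq by gene ID (6846 of 7014 matched), coordinates from the authors' table. Beside the word searches given above, a search outside the lists for elongator or thiouridylase gave 6 lower and 0 higher of 9 (backgrounds 14.7% and 13.7%). Repeated 58-base windows were counted in the RefSeq genome, without regard to the mate of a read. Alternatives were another block, another fit, DESeq2 1.42.0, its size factors, other filters, spike-in rows kept, rRNA genes left out, 60 libraries in 1 fit, and each replicate or strain left out. Leaving out all rRNA, tRNA, snoRNA and snRNA genes was added after seeing the data.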

Additional observations from a re-analysis of the deposited data

Results flagged for a closer look

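The starvation response of 1696 genes differed between the strain pairs by the test of the difference itself (edgeR, adjusted p below 0.05).

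Groups of 6 libraries were formed by the named genes, a few further members of their lists and the 4 cells. Among 552 such groups, 1 library stood far from the other 5 in 24 groups by Dixon's test. Chance gives about 1 in 20 such groups, so the 24 were no more than chance gives. They are listed as description only. In V25 of 86/97, replicate 3 of strain 97 was the far library for zym1 (24.8 CPM, next 8.88), ser3 (1053 CPM, next 767), fnx2 (98.7 CPM, next 76.5), sre1 (640 CPM, next 324) and ste11 (48.6 CPM, next 24.7). Replicate 1 of strain 97 was the far library for SPBP8B7.18c (75.5 CPM, next 51.5), eft202 (1206 CPM, next 845) and atp18 (51.7 CPM, the lowest, next 61.7), and replicate 2 for wtf19 (9.84 CPM, next 5.96). Replicate 1 of strain 86 was it for atd1 (360 CPM, next 161) and rec27 (1.11 CPM, all others 0). In V25 of 92/93 the far values were gpd3 in strain 92 replicate 1 (123 CPM, next 52.5), ste11 in strain 92 replicate 3 (51.2 CPM, next 33.4) and rum1 in strain 93 replicate 3 (59.1 CPM, next 41.9).

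In T0-N of 86/97, strain 97 replicate 1 was far from the others for adh4 (145 CPM, next 92.5), vtc4 (540 CPM, next 474) and SPAC977.18 (3.16 CPM, next 1.17), strain 97 replicate 3 for gas1 (516 CPM, next 339) and map3 (14.9 CPM, next 10.2), and strain 86 replicate 2 for wtf19 (48.9 CPM, next 40.4). In T0-N of 92/93, strain 92 replicate 1 was the lowest for rec8 (3.48 CPM, next 6.9) and rep1 (21.6 CPM, next 27.3) and the highest for wtf23 (42.5 CPM, next 34.5), and strain 92 replicate 3 was the highest for SPAC1F8.04c-antisense-1 (23.9 CPM, next 15).

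Spike-in RNA, left out of the main comparisons and kept in 1 alternative, had 69269 counts in the T0-N library with the fewest and at most 21 in any V25 library.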

How the results depend on the processing

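The main count of 1696 was 1157 without the replicate block (all 1157 among the 1696), 1732 with DESeq2 and 1517 where every library needed 10 counts. No called gene had the opposite sign under any setting, though every setting reused libraries in which the genes were called. The main count fell to 1011 with strain 92 left out, and ranged from 1044 to 1418 without 1 replicate. Higher calls, 820, became 485 and 510 with strain 92 or 97 left out, and lower calls, 876, became 526 and 548 with strain 92 or 93 left out and 487 to 771 without 1 replicate. The T0-N count of 451 became 206 without the replicate block, 682 with a block in each state, 264, 90 and 262 with strain 86, 92 or 97 left out, and 148 to 321 without 1 replicate. In T4D25, 412 became 181 without the replicate block and 132 to 327 without 1 replicate. Between strains 97 and 86, 2 genes became 1 to 3 without 1 replicate. The cause of these shifts was not tested. Of 2530 values of single named genes, 2396 kept their side of the threshold, 128 dropped below it, 6 rose above it and none changed sign. The call of adh4 was lost with strain 86 left out (difference 0.03). Scaling to spike-in RNA was not run, since V25 held at most 21 spike-in counts.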
